A study of Drosophila melanogaster with 2 samples.

Results

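The 399 distal intronic peaks of Sima, the fly ortholog of HIF-1alpha, are described here out of the 1272 peaks that passed the authors' threshold on the irreproducible discovery rate (IDR) on the dm6 build. A peak was counted when its summit lay inside a protein-coding gene, outside every annotated exon and more than 500 bp from any annotated start site of Ensembl BDGP6. The members made up 31.4% of the peaks (Wilson 95% interval 28.9 to 34; intervals here cover counting error only). Of the rest, 701 lay within 500 bp of a start site and are called promoter peaks, 139 lay outside protein-coding genes and are called intergenic, and 33 lay in exons.

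The peaks came from chromatin immunoprecipitation with an antibody against GFP and sequencing. Whole Drosophila melanogaster embryos of the strain sima-RB-GFP were used, aged 0 to 24 h, with males and females pooled. This line stably expresses sima-RB with GFP fused to its C terminus, so reads at sima can come from the insertion as well as from the native gene. Both samples, biological replicates 1 and 2, belong to 1 group, with no second genotype, treatment or control sample analysed here, so no test across samples was possible and values are given as descriptions. In whole embryos, binding in few cells and weak binding in many cells cannot be told apart.

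HIF proteins are basic helix-loop-helix PAS factors that pair with a constant partner, Tango in the fly, and bind a short core sequence, written ACGTG or GCGTG. Oxygen-dependent hydroxylation marks the HIF-alpha subunit for degradation through the Vhl ubiquitin ligase, so the protein is best known from hypoxic tissue, where it raises genes of glycolysis and oxygen supply. Introns of long fly genes often hold enhancers and internal promoters that act on the host gene or on a neighbour.

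The sequences at 3 sets of summits are shown because they carry the main features described below: A- and T-rich summits, few hypoxia cores, and GAGA-factor words beside the summit. All are given for the plus strand of the Release 6 (dm6) genome, 5′ to 3′, with 50 bp to each side of the summit unless stated. The first set holds the 2 strongest members, and capitals mark TTAAAA, which the first lacks.
ush (chr2L:481015-481115): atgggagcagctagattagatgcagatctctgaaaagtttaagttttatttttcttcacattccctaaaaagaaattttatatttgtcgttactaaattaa
CG11050 (chr2L:6612667-6612767): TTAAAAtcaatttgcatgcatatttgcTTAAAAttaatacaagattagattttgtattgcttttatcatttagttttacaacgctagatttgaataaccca
The second set holds the 3 strongest members outside the arm left out here that have a hypoxia core on either strand within the window. Capitals mark the core, which reads CACGT where it lies on the minus strand.
norpA (chrX:4324903-4325003): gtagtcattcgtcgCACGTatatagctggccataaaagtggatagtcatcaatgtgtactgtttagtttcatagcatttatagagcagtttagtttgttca
SCaMC (chr3L:12407088-12407188): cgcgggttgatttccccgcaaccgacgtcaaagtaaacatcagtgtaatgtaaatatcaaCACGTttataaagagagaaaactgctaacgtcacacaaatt
Pits (chrX:12579669-12579769): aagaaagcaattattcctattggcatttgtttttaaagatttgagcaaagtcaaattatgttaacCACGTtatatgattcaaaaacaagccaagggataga
The last set shows GAGAG on either strand (CTCTC on the minus strand). It holds the 2 strongest members of Raf, the gene with most peaks, of which the second has no such word. It closes with a wider window of 300 bp around the summit in Lk6, chosen after the profile of the word was seen, with the word on both sides of the summit.
Raf (chrX:2297679-2297779): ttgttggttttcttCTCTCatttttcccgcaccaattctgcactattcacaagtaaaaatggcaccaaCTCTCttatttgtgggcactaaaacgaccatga
Raf (chrX:2300682-2300782): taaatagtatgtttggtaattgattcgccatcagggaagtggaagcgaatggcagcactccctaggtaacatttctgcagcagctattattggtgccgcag
Lk6 (chr3R:11760909-11761208): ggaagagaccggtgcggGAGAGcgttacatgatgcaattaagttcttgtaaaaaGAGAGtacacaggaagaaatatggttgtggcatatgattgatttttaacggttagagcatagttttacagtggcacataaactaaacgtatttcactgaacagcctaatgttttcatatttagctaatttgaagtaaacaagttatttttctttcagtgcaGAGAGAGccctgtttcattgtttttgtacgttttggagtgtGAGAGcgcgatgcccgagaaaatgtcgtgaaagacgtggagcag

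The strongest distal intronic peak lay in the first intron of ush, which encodes a FOG-family zinc-finger cofactor of GATA factors (2L 480924 to 481261). It ranked 3 among all peaks by signal in the pooled reads. Signals are given here as the ratio to the median of the same list of 30000 regions, and this peak had a ratio of 21.3 in replicate 1 and 34.9 in replicate 2. The annotated start site nearest to it was not one of ush but that of cbt, a zinc-finger transcription factor gene, with the summit at -1377 bp from it, upstream. The second strongest lay in CG11050 (2L 6612543 to 6612885; rank 5), with ratios of 20.5 and 26.2 in replicates 1 and 2. Its summit was in an intron of only 140 bp, the shortest intron that held a member, 1030 bp downstream of a start site within CG11050.

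The next strongest peak lay in the first intron of Lk6, the kinase that phosphorylates the translation factor eIF4E (3R 11760905 to 11761178; rank 9), with ratios of 16.1 and 22.9. CG32772 (X 4910223 to 4910522; rank 12) had 12.6 and 23.8, and CG9663 (2L 3302053 to 3302303; rank 15) had 9.35 and 22.1. In these 5 strongest members replicate 2 gave the higher ratio. Tlk, the Tousled-like kinase of chromatin assembly (X 3742088 to 3742344; rank 27), had 11.2 and 14.8. Trl, which encodes the GAGA factor itself (3L 14759392 to 14759647; rank 36), had 10.7 and 11.5, the closest pair among the 10 strongest. Reph (2L 3804652 to 3804857; rank 37) had 8.78 and 13.8, and Raf, the kinase that activates MEK (X 2297609 to 2297810; rank 47), 6.61 and 14.2. NFAT, a transcription factor gene (X 13640419 to 13640615; rank 50), closed the 10 strongest with 8.85 and 10.9. At the other end, the weakest member lay in the first intron of Rab23, a small GTPase of planar cell polarity (3R 5682946 to 5683341; rank 1267), with 2.38 and 2.22.

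Distal intronic peaks were of middling strength within the IDR list. Their median rank was 653 (interquartile range 354 to 957), against 614 for promoter peaks and 695 for intergenic peaks. The median ratio was 2.99 in replicate 1 and 3.81 in replicate 2, and for promoter peaks 2.99 and 4.27. Of the 100 strongest peaks, 24 were distal intronic and 65 promoter peaks. In the longer list of 30000 pooled regions, 10866 were distal intronic by the same rule and 399 of these, 3.67%, were in the IDR list, against 4.24% of all regions and 7.77% of promoter regions.

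Most members were found in both replicates, but their strength varied between them. A region with a summit within 100 bp was present in each replicate's own list for 366 of 399 members (91.7%, Wilson 95% interval 88.6 to 94.1), close to the 94.0% of promoter and 95% of intergenic peaks. Among the strongest 1272 regions of each replicate, 219 members (54.9%, 50 to 59.7) were matched in both, 75 in replicate 1 only, 86 in replicate 2 only and 19 in neither. Over the 366 matched members Spearman's rho of the signal was 0.315 and Pearson's r on the log2 scale 0.455. These points share 2 libraries and a threshold on the pooled signal. The ratio was higher in replicate 2 for 263 of them.

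**Figure D1:**
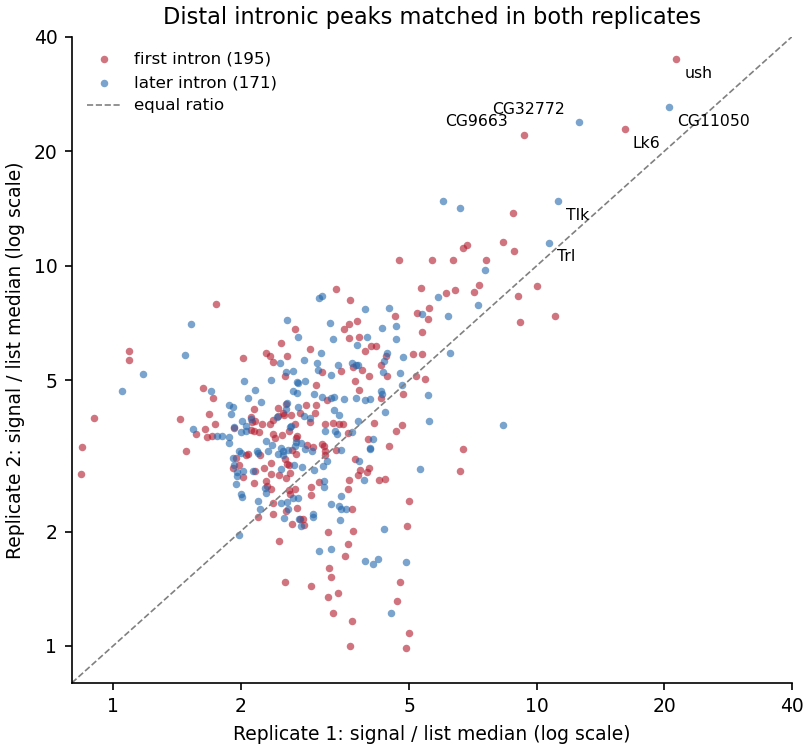
Signal of each distal intronic peak matched in both replicates, as the ratio to the median of that replicate's list (both axes logarithmic); each point is 1 of 366 peaks, coloured by first or later intron, and the dashed line marks equal ratios. The peaks of ush, CG11050 and Lk6 stand at the upper right in both replicates, and 263 points lie above the line.

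Distal intronic sequence covered 47.07 Mb, 35.2% of the 6 arms, and held 8.48 peaks per Mb, against 9.5 peaks of all kinds per Mb of the arms. The X chromosome held 98 members at 11 per Mb, 2L 75 at 9.74, 2R 74 at 9.0, 3L 65 at 6.98 and 3R 87 at 6.85. Chromosome 4 had 0 members on 0.262 Mb. X thus carried 24.6% of the members (Wilson 95% interval 20.6 to 29.0) and 18.9% of the sequence. Its share was 16% (13.5 to 18.9) of promoter peaks, 10.1% (6.09 to 16.2) of intergenic peaks and 17.7% of all distal intronic regions in the pooled list. The 2 replicates differed here: among the 1272 strongest regions of replicate 2 alone X held 27.8% of distal intronic ones (23.6 to 32.4), and with replicate 1 alone 20.6% (17.0 to 24.7), an interval that holds the share of the sequence. Males carry 1 X, so the pool of males and females held fewer copies of X than of each autosome. The part of copy number in these shares was not tested.

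Members were denser in first introns than in later ones. By the longest-spanning transcript with the summit in an intron, 211 lay in a first intron (52.9%, Wilson 95% interval 48.0 to 57.7), while first introns made up 30% of distal intronic sequence. That gave 14.9 peaks per Mb in first introns and 5.7 in later ones, a ratio of 2.62. Introns of order 2 followed with 131 members at 10.3 per Mb, those of order 3 had 31 at 5.07, and those of orders 4 and 5 together 15 at 2.66. Introns 6 to 10 had 4 members at 0.78 per Mb, and introns from 11 on had 7 at 2.11. Counting an intron as first when it was first in any transcript raised the share to 76.4% of members against 43.5% of sequence (ratio 4.22). Requiring it of every transcript with the summit in an intron lowered it to 47.1% against 26.1% (ratio 2.52).

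The difference between first and later introns was seen at matched distances from the nearest start site. From 500 to 1000 bp away, first introns held 26.9 peaks per Mb (exact Poisson 95% interval 20.7 to 34.5) and later introns 13.8 (9.67 to 19.1). From 1000 to 2000 bp the values were 19.2 (14.6 to 24.8) and 7.91 (5.51 to 11), and from 2000 to 5000 bp 12.7 (9.6 to 16.5) and 6.91 (5.28 to 8.87). Both series fell with distance. From 5000 to 10000 bp they stood at 10.1 (6.69 to 14.8) and 4.51 (3.16 to 6.25), and from 10000 to 20000 bp at 5.02 (2.02 to 10.4) and 2.33 (1.27 to 3.91), where the intervals overlap. Beyond 20000 bp first introns offered only 0.286 Mb and held 0 members, and later introns held 6 (1.94 per Mb).

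**Figure D2:**
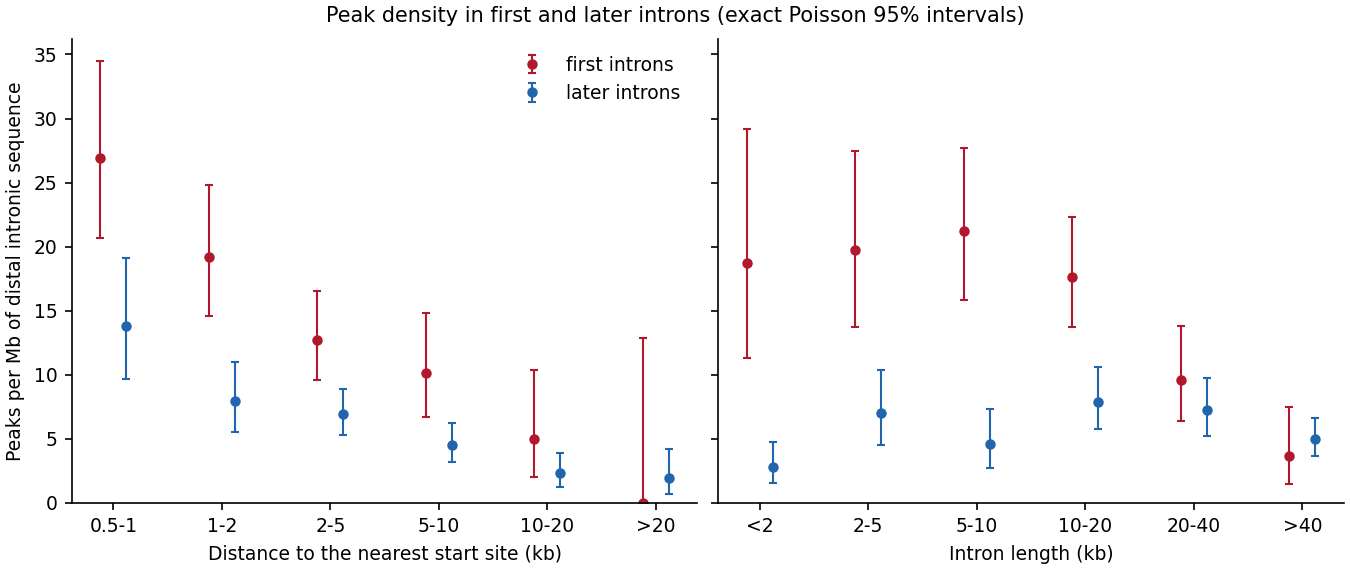
Distal intronic peaks per Mb of such sequence in first (red) and later (blue) introns, by distance to the nearest annotated start site in kb (left) and by intron length in kb (right); bars are exact Poisson 95% intervals. Density fell with distance in both kinds of intron, and the intervals of both kinds overlap in introns over 20 kb.

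By intron length the pattern differed between short and very long introns. In introns up to 2000 bp, first introns held 18.7 peaks per Mb (exact Poisson 95% interval 11.3 to 29.2) and later ones 2.82 (1.54 to 4.73). From 5000 to 10000 bp the values were 21.2 (15.8 to 27.7) and 4.63 (2.74 to 7.32). In introns of 20000 to 40000 bp they were 9.58 (6.42 to 13.8) and 7.21 (5.2 to 9.75), and over 40000 bp 3.62 (1.45 to 7.45) and 4.96 (3.63 to 6.62), so no excess in first introns was detectable in the longest class. Signal did not separate the 2 kinds of intron: the median rank was 654 in first introns (interquartile range 321.5 to 1002) and 650 in later ones (391.5 to 937). The 3 strongest first-intron members were those of ush, Lk6 and CG9663, and the 3 strongest later-intron members those of CG11050, CG32772 and Tlk.

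The median member lay in a long intron and a few kb from a start site. Member introns had a median length of 12320 bp. That of all introns with any distal intronic sequence was 143 bp, counted per intron and not per base. Per base, members were not densest in the longest introns. Introns up to 2000 bp held 5.52 peaks per Mb, and the 3 classes from 2000 to 20000 bp held 11.3, 11.1 and 11.9. From 20000 to 40000 bp the density was 8.02, and over 40000 bp 4.73. The median member lay 2409 bp from the nearer intron edge. The nearest annotated start site was at a median of 2221 bp (interquartile range 1016 to 4602; longest 33557). For 84.5% of members (80.6 to 87.7) the nearest protein-coding start site belonged to a host gene, and for 213 (53.4%) the host had a start site downstream of the member as well. A summit upstream of its nearest coding start was seen in 140 members. On either side of the cut at 500 bp, 34 intronic peaks lay 300 to 400 bp from a start site (median rank 642) and 23 at 400 to 500 bp (656), and among members 28 lay at 500 to 600 bp (416.5) and 17 at 600 to 700 bp (468).

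The 399 members lay in 321 host genes, 3.54% of the 9075 protein-coding genes that have any distal intronic sequence. There were 16 members in overlapping genes with 2 or more hosts. A single peak was found in 257 hosts, 2 in 45, 3 in 8, 4 in 10 and 5 in 1. The 64 hosts with 2 or more peaks were 0.705% of genes and contained 155 members (38.8%). Hosts were long: their median distal intronic length was 12770 bp, against 447 bp for all 9075 genes. The share of genes that hosted a peak rose from 0.495% of genes with up to 2 kb of such sequence through 5.41%, 9.86%, 13.8% and 15.2% to 21.8% of genes with over 40 kb. The density was 13.3 peaks per Mb in the shortest class, highest at 17.7 from 2 to 5 kb, and lower in each longer class, with 15.9 from 5 to 10 kb, 12.3 from 10 to 20 kb, 7.87 from 20 to 40 kb and 4.7 above.

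Raf had the most peaks, 5, all in 1 later intron (gene at X 2295466 to 2343870). The strongest, at rank 47, is given above. The peak at rank 390 had ratios of 1.53 in replicate 1 and 7.01 in replicate 2, that at rank 627 had 2.95 and 3.26, and that at rank 1218 had 1.99 and 1.96. The one at rank 1011 had 1.58 in replicate 1 and no match in replicate 2. Replicate 2 thus carried the 2 strongest peaks of Raf more strongly than replicate 1 did.

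Next to Raf came 10 genes with 4 peaks each. In ush (2L 476220 to 540560) the peaks ranked 3, 689, 718 and 892, and the one at rank 689 had ratios of 4.67 and 1.32, the reverse order of the strongest. Lrch, which encodes a leucine-rich repeat protein with a calponin homology domain (2L 17367511 to 17384115), had its 4 in 1 first intron at ranks 51, 493, 1103 and 1256. Its neighbouring summits were as close as 201 bp, and it was the densest of the 11 genes, with 39.7 peaks per 100 kb of distal intronic sequence. CHES-1-like, a forkhead factor gene (X 7682338 to 7709385), also had all 4 in its first intron, at ranks 346, 576, 961 and 1231.

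The other hosts with 4 peaks were large genes, several of them regulators of hormone response and patterning. Hr4, a nuclear receptor gene of the ecdysone response (X 1941940 to 2007956), had ranks of 172, 541, 647 and 926. Eip75B, which encodes a haem-binding nuclear receptor induced by ecdysone (3L 17950953 to 18064696), had 338, 705, 854 and 943. The zinc-finger gene shn, which acts downstream of the BMP ligand Dpp (2R 11159086 to 11217394), had 793, 838, 903 and 1253, and sbb, a co-repressor gene (2R 18278198 to 18357296), had 400, 915, 968 and 1149. The peaks of sick, a gene of axon growth (2L 19796365 to 19958424), ranked 164, 843, 1138 and 1247 and fell in 3 introns. In kirre, an adhesion receptor gene of myoblast fusion (X 2740384 to 3134532), the peaks ranked 282, 421, 771 and 874 and lay in 2 clusters 298531 bp apart. In CG1677 (X 7281089 to 7405797) the nearest start sites of the 4 peaks were those of CBP, Dok, Atg5 and CG42780, none its own. Of these 11 hosts, Eip75B, CHES-1-like, sbb and shn also had an IDR peak within 500 bp of one of their own start sites.

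**Figure D3:**
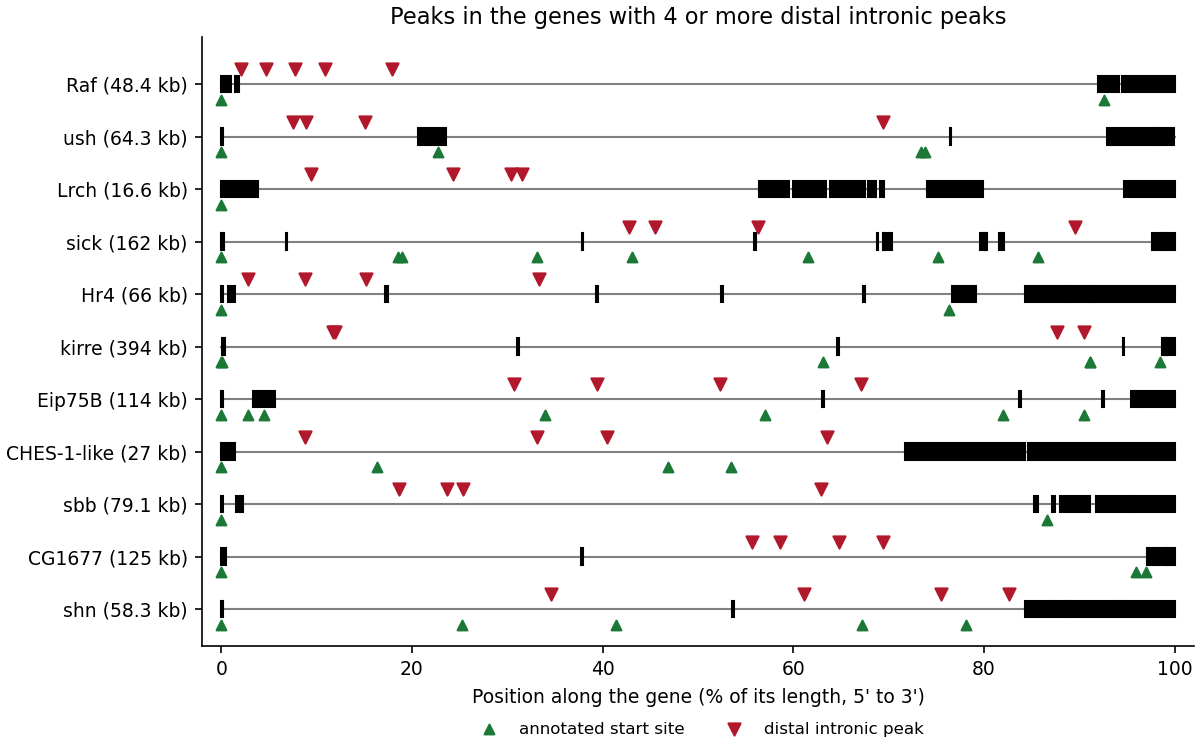
Positions of the distal intronic peaks (red) in the 11 genes with 4 or more of them, along each gene from its outermost start site as a percentage of gene length, with the length in kb beside the name; black boxes are exons of the longest-spanning transcript, and green triangles are annotated start sites of the gene. The 5 peaks of Raf and the 4 of Lrch sit in 1 intron each, and those of kirre in 2 distant clusters.

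Over all 64 hosts with several peaks, 45 had them in 1 intron. The 95 gaps between neighbouring summits of 1 gene had a median of 5663 bp (interquartile range 1609 to 14050; 200 to 298531), and 15 were no longer than 1000 bp. In 7 of these pairs the peak intervals overlapped. Hosts with 3 peaks were Tlk, tara, S, babos, simj, crp, CG42238 and PRAS40. Of Tlk's peaks at ranks 27, 882 and 1099 the last had no match in replicate 1.

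A peak at an own start site was found in 64 of the 321 hosts (19.9%, Wilson 95% interval 15.9 to 24.7), against 6.8% (6.29 to 7.34) of the 8754 genes with distal intronic sequence and no member, and 7.26% of both together. The difference was seen within classes of length. From 2 to 5 kb of distal intronic sequence the shares were 18.8% of hosts and 6.9% of the others, from 10 to 20 kb 29.0% and 7.44%, and over 40 kb 19.3% and 5.39%. Hosts also had more start sites, with a median of 2 (interquartile range 1 to 3) against 1 (1 to 2) in the other genes. Over 10 kb both medians were 2, with upper quartiles of 4 and 3. The part of start-site number in this difference was not tested. In the shortest class 3 of 32 hosts had such a peak (9.38% against 6.5%).

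The gene of Sima itself was among the hosts with 2 peaks. In sima (3R 30058311 to 30121798) a peak at 3R 30061084 to 30061479 (rank 157) lay in the first intron with ratios of 5.23 and 7.49, and a second at 3R 30092635 to 30093030 (rank 264) lay in an intron of order 7 with 3.76 and 6.2. They were 31551 bp apart, both were found in both replicates, and reads of the insertion cannot be told apart from those of the native gene. InR, the insulin receptor gene (3R 21570248 to 21619321), also had 2, at rank 180 with ratios of 4.64 and 6.94 and at rank 437 with 4.47 and 3.35. These were the 2 hosts among the 15 genes of the HIF pathway and its known targets that have distal intronic sequence, at 28.5 peaks per Mb of it (exact Poisson 95% interval 7.75 to 72.9).

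The 15 gene lists compared ran from 1.33 to 60.6 peaks per Mb, against 8.48 peaks per Mb over all genes and 3.54% of genes as hosts. The lists were drawn up with earlier results of these data known, and no test of a list was made. Genes of the EGF receptor and MAP kinase pathway hosted a peak in 7 of 18 cases, at 51.6 peaks per Mb (exact Poisson 95% interval 26.7 to 90.1), of which Raf held 5 of 12 peaks. Their median distal intronic length was 7.5 kb, and in genes of 5 to 10 kb 9.86% were hosts, at 15.9 per Mb. The hosts of this list ranged from 2.94 kb (drk) to 47.8 kb (pnt). Over the classes of length that this range spans, 5.41% to 21.8% of genes were hosts. Raf was the leading host of the list. Its other leading hosts were aos, which encodes a secreted inhibitor of the receptor and whose peak at rank 122 (ratios 6.18 and 7.39) also lies in the overlapping gene CG33158, and aop, an ETS-domain repressor gene (rank 408; 3.75 and 4.48). The remaining hosts were drk, pnt, edl and vn.

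Polycomb and trithorax group genes were hosts in 7 of 27 cases, at 56.9 peaks per Mb (exact Poisson 95% interval 24.6 to 112.0). The list had a median distal intronic length of only 0.787 kb. Of all genes with up to 2 kb, 0.495% were hosts, at 13.3 per Mb. In the longer classes 5.41% to 21.8% were hosts, at 4.7 to 17.7 per Mb. The 7 hosts of the list were all in these longer classes, from 2.95 kb (ph-p) to 40.8 kb (psq). They were led by Trl, by trx, the histone H3 lysine 4 methyltransferase gene (ranks 266 and 1225), and by Psc, a subunit gene of a Polycomb repressive complex (rank 434; ratios 3.79 and 3.9). The second peak of trx had no match in replicate 2. In this list 8 genes had a promoter peak of their own. Notch, Wnt, Hedgehog and Dpp pathway genes were hosts in 9 of 29 cases, at 24.4 per Mb (13.6 to 40.2). The list had a median of 15.9 kb, and from 10 to 20 kb 13.8% of genes were hosts, at 12.3 per Mb. Its hosts had 9.15 kb (Mad) to 82.1 kb (fz), in classes with 9.86% to 21.8% of genes as hosts. The share of hosts in the list was 31.0%, and 17.2% among the 636 strongest peaks of the IDR list. The hosts included fz, the Wnt and planar polarity receptor gene (ranks 125 and 451), Mad, the Dpp effector gene (rank 145; 5.53 and 7.22), and mam, the Notch co-activator gene (ranks 278 and 477).

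Hormone receptors formed a further dense list. Of 18 nuclear receptor genes 4 were hosts (Hr4, Eip75B, Hr3 and EcR) with 11 peaks, 30.2 per Mb (exact Poisson 95% interval 15.1 to 53.9). Hr4 and Eip75B held 8 of these 11. The share of hosts was 22.2% (Wilson 95% interval 9.0 to 45.2), and 11.1% among the 636 strongest peaks of the IDR list. The list had a median of 15.9 kb, and from 10 to 20 kb 13.8% of genes were hosts, at 12.3 per Mb. Its hosts had 20.6 kb (Hr3) to 82.6 kb (Eip75B), in classes with 15.2% and 21.8% of genes as hosts. Hr3, an ecdysone-induced receptor gene, had 2 peaks at ranks 782 and 821, both also in the overlapping gene CG12912. Of 11 other regulators of the ecdysone response 4 were hosts, at 20.5 per Mb (7.52 to 44.6). They were ImpL2, which encodes a secreted insulin-binding protein (ranks 123 and 1091, the second without a match in replicate 1), Eip63E, a cyclin-dependent kinase gene (ranks 643 and 995), E23, an ABC transporter gene (rank 818), and br, whose peak also lies in Mur2B. Their share of 36.4% was 18.2% with replicate 1 alone and 9.09% among the 636 strongest peaks of the IDR list. The list of these regulators had a median of 13.9 kb, in the same class of 10 to 20 kb. Its hosts had 8.04 kb (ImpL2) to 77.8 kb (Eip63E), in classes with 9.86% to 21.8% of genes as hosts.

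**Figure D4:**
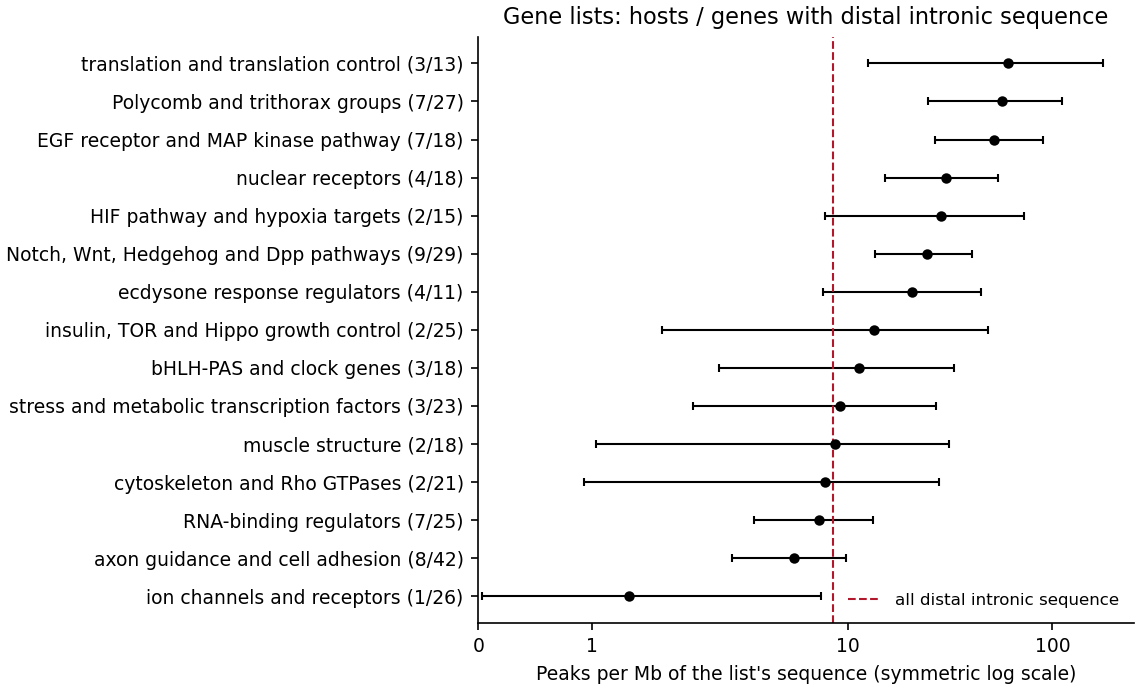
Distal intronic peaks per Mb of distal intronic sequence for each of 15 gene lists (symmetric log axis), with exact Poisson 95% intervals; in parentheses, hosts over list members with such sequence, and the dashed line marks all such sequence, 8.48 per Mb. Polycomb and trithorax, EGF receptor, nuclear receptor, Notch to Dpp and translation lists have intervals above the line (the last with 1 host of 13 with replicate 1 alone), and ion channels have one below it. The line is not matched for gene length. Genes with up to 2 kb of such sequence held 13.3 peaks per Mb, inside the interval of the translation list (median 0.781 kb).

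Hosting and density both vary with gene length, so lists of long genes were read against the classes of length above: 15.2% of genes and 7.87 peaks per Mb from 20 to 40 kb, and 21.8% and 4.7 over 40 kb. Axon guidance and adhesion genes were hosts in 8 of 42 cases, 19.0%, at 5.44 peaks per Mb (exact Poisson 95% interval 2.71 to 9.73), with a median distal intronic length of 32.8 kb. They were led by kirre, whose peaks at ranks 282 and 771 also lie in the overlapping gene CG32795, by fra, the netrin receptor gene (rank 325; ratios 4.65 and 3.67), and by the netrin gene NetB (rank 553; 3.91 and 2.73). RNA-binding regulators were hosts in 7 of 25 cases, 28%, at 7.22 per Mb (3.46 to 13.3) and a median length of 31.7 kb, led by mub (rank 168; 3.11 and 8.32), shep (rank 191; 3.06 and 8.24) and pum, the translational repressor gene (ranks 304 and 839). All 4 peaks of these 3 genes were stronger in replicate 2. Ion channel and receptor genes had 1 host of 26 (3.85%), the potassium channel gene KCNQ, with a median length of 19.4 kb, at 1.33 per Mb (0.0336 to 7.39). Its peak at rank 510 had a ratio of 5.02 in replicate 2 and no match in replicate 1.

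The other lists had few hosts and wide intervals. Of 18 bHLH-PAS and clock genes 3 were hosts, at 11.3 peaks per Mb (exact Poisson 95% interval 2.33 to 33.0): Pdp1, a bZIP factor gene of the clock (rank 241; ratios 4.07 and 6.15), sim, the regulator of the central nervous system midline and a relative of sima (rank 654; 2.87 and 3.39), and cwo, a repressor gene of the clock (rank 1223). Stress and metabolic transcription factors had 3 of 23, namely REPTOR, a bZIP factor gene under the TOR complex (rank 703), and the Krüppel-like factor genes luna and dar1 (ranks 969 and 1000). Translation genes had 3 of 13, Lk6, the poly(A)-binding protein gene pAbp (rank 476) and the cap-binding repressor gene eIF4EHP (rank 975). They came to 60.6 peaks per Mb (12.5 to 177.0), from only 0.0495 Mb, and with replicate 1 alone the share of hosts in this list dropped from 23.1% to 7.69%. The list had a median of 0.781 kb, and genes with up to 2 kb held 13.3 peaks per Mb, a value inside that interval. Its hosts had 0.562 kb (pAbp) to 31.3 kb (eIF4EHP), in classes that held 7.87 to 17.7 per Mb. Growth control genes had 2 of 25, Lk6 and Myc (rank 948). Muscle genes had 2 of 18, the integrin gene if (rank 1027, unmatched in replicate 2) and the myogenic factor gene Mef2 (rank 1165). Cytoskeleton genes had 2 of 21, the cofilin gene tsr (rank 217; 3.6 and 7.03) and mbc, which encodes a Rac exchange factor (rank 1115). The share of hosts was 23.8% for cytoskeleton genes with replicate 1 alone against 9.52%, 21.7% for stress factors against 13%, and 5.56% for muscle genes with replicate 2 alone against 11.1%.

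Summits were poor in G and C within a narrow window. The 101 bp at the summits averaged 33.2% G+C (SD 6.68, n = 399 peaks), against 41.4% (SD 9.48) in equal windows centred 500 bp to both sides (81.5% of whose centres were distal intronic too) and 40.2% (SD 9.1) in 465858 windows tiled over all distal intronic sequence. Promoter summits averaged 34.7% and intergenic summits 35.9%. With each replicate's own strongest regions the mean at distal intronic summits was 34.7% for replicate 1 and 33.4% for replicate 2. The low values were limited to about 100 bp on each side, and from 200 to 400 bp the mean rose to between 42.6% and 44.2%. Repeat-masked bases made up 19.6% of both summits and tiled windows.

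The hypoxia core, ACGTG or GCGTG on either strand, was less frequent at the summits than around them. It stood within 50 bp of 39 summits (9.77%, Wilson 95% interval 7.23 to 13.1), in 19.5% (16.9 to 22.4) of flanking windows and in 17.1% of tiled windows. Promoter summits had it in 15.1% (12.7 to 18.0). Base composition moved with this count. Among windows with at most 30% G+C the core was in 3.62% of members and 5.97% of tiled windows, from 30 to 35% in 8.73% and 10.7%, from 35 to 40% in 10% and 14.8%, and above 40% in 24.6% and 23.1%. Within each class the value for the tiled windows lay inside the interval of the members. The members with a core whose sequences are shown above lay in norpA, a phospholipase C gene of vision (rank 66; ratios 6.84 and 11.3), SCaMC, a mitochondrial carrier gene (rank 131; 8.31 and 3.81), and Pits (rank 174; 3.62 and 8.1). A further one, in wde at rank 98, stood second among those with a core. The full E-box CACGTG was at 4 summits (1.0%, against 1.15% of tiled windows).

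TTAAAA, the opposite case, stood at 109 summits (27.3%, Wilson 95% interval 23.2 to 31.9), in 15.4% of flanks and in 18.3% of tiled windows. With replicate 1 alone its share was 22.7%. At equal G+C it was in 44.9% of members and 44.3% of tiled windows with at most 30%, in 21.4% and 27.4% from 30 to 35%, in 20% and 18.5% from 35 to 40%, and in 9.23% and 8.06% above. TATAAA was at 19.0% (15.5 to 23.2) of summits, 11.8% of flanks and 13% of tiled windows. At equal G+C it was in 25.4% of members and 32.9% of tiled windows with at most 30%, in 22.2% and 19.7% from 30 to 35%, in 14.3% and 13% from 35 to 40%, and in 4.62% and 5.18% above. Intergenic summits had TATAAA in 6.47% (3.44 to 11.8), and promoter summits in 19.3%. The GATA-factor word GATAAG was at 7.02% (4.9 to 9.96) of summits, 5.26% (3.92 to 7.04) of flanks and 4.41% of tiled windows. It was at 4.79% of summits among the 636 strongest peaks of the IDR list. At equal G+C it was in 6.52% of members and 4.63% of tiled windows with at most 30%. From 30 to 35% it was in 7.14% and 5.06%, from 35 to 40% in 8.57% and 4.81%, and above 40% in 6.15% and 3.99%. Within each class the GATAAG value for the tiled windows lay inside the interval of the members. CACCC was at 4.01% (2.48 to 6.41) of summits, 10.3% of flanks and 11.2% of tiled windows. Its share at summits was 6.82% with replicate 2 alone and 6.15% with replicate 1 alone. At equal G+C it was in 2.17% of members and 2.53% of tiled windows with at most 30%. From 30 to 35% it was in 0.794% and 5.11%, from 35 to 40% in 10% and 7.75%, and above 40% in 7.69% and 16.8%.

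**Figure D5:**
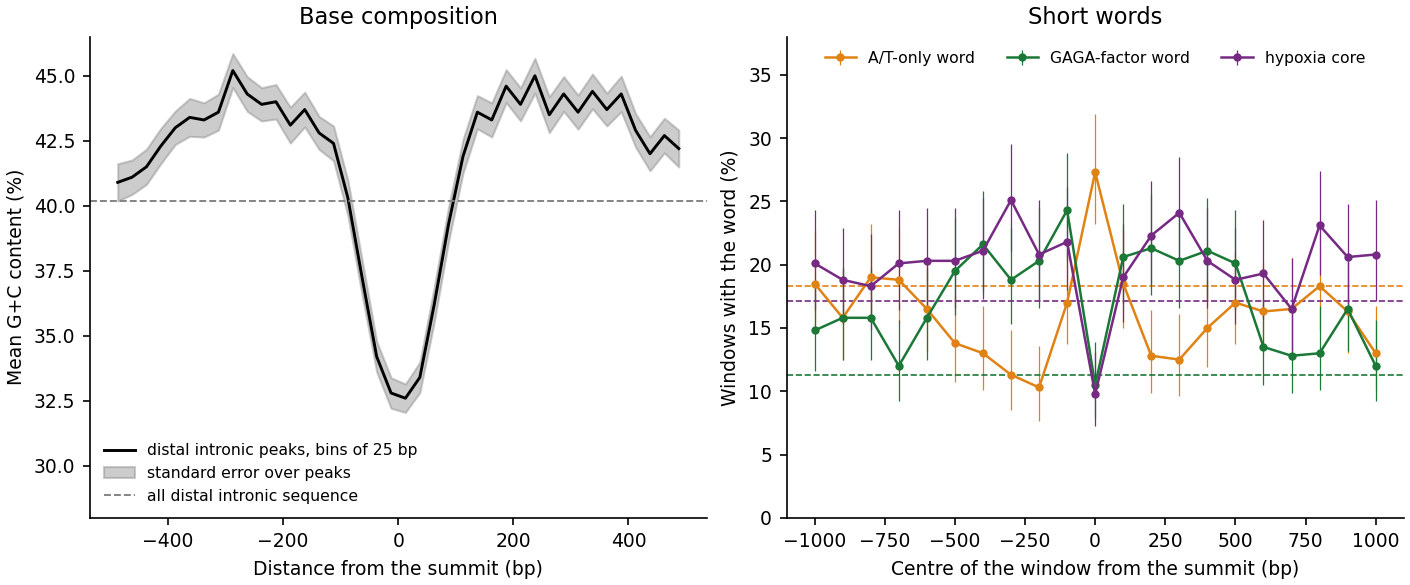
Left, mean G+C content in bins of 25 bp around the summits of the 399 distal intronic peaks, with the standard error over peaks. Right, share of windows of 101 bp with TTAAAA (orange, A/T-only word), GAGAG (green, GAGA-factor word) or a hypoxia core (purple), by distance of the window from the summit, with Wilson 95% intervals; dashed lines give all distal intronic sequence. G+C dips at the summit. GAGAG stands above its dashed line on both sides from 100 to 1000 bp, furthest up to 500 bp, but not at the summit.

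GAGAG, the word bound by the GAGA factor, was more frequent beside the summits than at them. At the summit it was in 10.5% of members (Wilson 95% interval 7.88 to 13.9), like the 11.3% of tiled windows. At equal G+C it was in 2.9% of members and 4.78% of tiled windows with at most 30%. From 30 to 35% it was in 8.73% and 7.92%, from 35 to 40% in 17.1% and 10.6%, and above 40% in 23.1% and 14.5%. In the window centred 100 bp to the left of the summit on the plus strand it was in 24.3% (20.4 to 28.8), and in that 100 bp to the right in 20.6% (16.9 to 24.8). It stayed between 18.8% and 21.6% from 200 to 500 bp on both sides, and from 600 to 1000 bp it lay between 12% and 16.5%. Of the 399 members 160 (40.1%, 35.4 to 45.0) had the word in at least 1 of the windows at 100 bp, and 19 (4.76%) in both, as in Lk6. Over both windows at 100 bp the share was 22.4%, with replicate 2 alone 21.1% and with replicate 1 alone 20.8%, and it was 26.6% among the 636 strongest peaks of the IDR list. In the flanks at 500 bp, CACACA was in 13% (10.9 to 15.5) against 9.64% of tiled windows, and it was in 6.27% of summits. G+C content was also higher in these flanking windows than in the tiled ones, and its part in the share of GAGAG there was not tested.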

How the data were processed

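Peak lists from anti-GFP ChIP-seq of 2 replicates were used on dm6: 30000 regions for each replicate and for the pooled reads, and the IDR list of 1272. The lists have no header lines and are narrowPeak files per the accompanying text files, a layout in which the authors deposited a signal value and a −log10 q per region. The q values entered no comparison. Signal was used as the rank or the ratio to its list's median, since its scaling is not given in the sources used here. The depth per sample is unknown, and so is the precision it gives. The peak caller is not given in the sources used here. The dm3 lists were not used.

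Genes came from Ensembl release 115 and sequence from the Release 6 genome. All features, annotated transposable elements included, counted as exons and start sites. Densities used the distal intronic bases left by the same rule. Intron order was that in the longest-spanning coding transcript with the base in an intron. Replicate summits matched within 100 bp. Words were sought on both strands within 50 bp. Intervals were Wilson or exact Poisson at 95%. Values were computed in Python 3.11.15 with scipy 1.17.1, numpy 2.4.6 and pandas 2.3.3, and drawn with matplotlib 3.10.9, and the masks and counts were tested on simulated data.

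The members, the 15 lists (346 genes, all found, 8 under a newer symbol) and the 14 words were chosen with earlier results of these data known. Named genes were the hosts of the 10 strongest members, of the 3 strongest in first and in later introns and of the weakest; the 12 with most peaks, ties going to the strongest peak; every host in the HIF list; and the 3 leading hosts of each other list. The X share, the density ratio, the G+C classes, the word profile and the count without transposable elements were added after these files were seen. Other gene names printed are the remaining hosts of a list or count, or neighbours of a peak. Sequences were taken from the 3 strongest members, the 3 strongest with a core and 2 of the host with most peaks, with 1 arm left out.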

Additional observations from a re-analysis of the deposited data

How the results depend on the processing

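Of 209 alternative values, 149 stayed close to the reported ones and 60 moved. With summits at least 2000 bp from a start site there were 207 members, 168 hosts, 34 of them with several peaks, 43.5% of members in first introns and a median rank of 746, against 696 at 1000 bp and 660 with coding starts only. The 636 strongest peaks held 188 members, 175 hosts, 18 with several peaks and 96.3% found in both replicates. The matched members had a median rank of 677 in the list of replicate 1 and 684 in that of replicate 2. With the strongest 1272 regions of 1 replicate alone, the X share was 20.6 to 27.8% and TTAAAA was at 22.7 to 29.0% of summits. The intron definition moved the share in first introns from 47.1 to 76.4% and the density ratio up to 4.22. Summits within 50 bp were matched in both replicates for 71.7% of members, and within 200 bp for 98.7%. An own start-site peak within 250 bp was found in 11.8% of hosts. With 25 bp to each side, TTAAAA was at 13.5% of summits and 9.63% of tiled windows and the hypoxia core at 5.51% and 8.74%. With 100 bp these were 43.1% and 32.2%, and 26.1% and 31.6%. Wider windows hold a word more often by construction, and fewer peaks give fewer hosts; the cause of the other shifts was not tested. No paired analysis was possible because there is only 1 group. Replicate 1 alone shared 259 hosts (80.7% of the 321 and 73.8% of its own 351), and replicate 2 alone 268 (83.5%, and 85.4% of its own 314). Read depth is unknown, so what depth limits cannot be stated.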
